A study of Homo sapiens with 2 samples.

Results

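Replication-dependent histone genes lie in clusters, and the PRMT5 peaks that overlap the HIST1 and HIST2 clusters are described here. They were chosen by position, as all peaks overlapping 3 hg19 intervals. The larger HIST1 interval runs from 26010000 to 26290000 on chromosome 6, the smaller HIST1 interval from 27770000 to 27870000 on chromosome 6, and the HIST2 interval from 149780000 to 149870000 on chromosome 1. The intervals were proposed with the density of peaks in them known, so the number of peaks in them is a description and was not tested. Of 2840 peaks, 23 overlapped the intervals, namely 13 in the larger HIST1, 4 in the smaller HIST1 and 6 in the HIST2 interval.

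The peaks come from untreated MDA-MB-231 (an established line of human breast cancer cells), in which DNA bound by PRMT5 was recovered from crosslinked chromatin with an antibody and sequenced. The series has 1 PRMT5 library and 1 input library of the same untreated line, which is DNA sequenced without immunoprecipitation and was not analysed here. With 1 library per group no value below has a replicate, and because a peak list holds no read counts the depth is unknown. Each peak has the authors' score, taken as the −log10 of the q-value of the peak caller and used here only to describe and rank peaks within the list.

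Most histone protein is made in S phase from these clustered genes, whose transcripts lack introns and end in a stem-loop rather than a poly(A) tail. H2A, H2B, H3 and H4 form the nucleosome core, and H1, the linker histone, binds where DNA enters and leaves it. The genes are transcribed in nuclear histone locus bodies organised by NPAT. PRMT5, which acts in a complex with WDR77, places symmetric dimethyl marks on arginines of the H2A, H3 and H4 tails. The clustered genes are thus the genes for several of its substrates.

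In RefSeq (GRCh38.p14), 67 protein-coding genes on chromosomes 1 and 6 carry an older HIST1 or HIST2 name, and 59 of them fall into the 3 runs of neighbouring genes that were matched to the intervals by their order along the chromosomes. The run of the larger HIST1 interval starts with H1-1 and ends with H4C8. It has 32 genes, 5 for H1, 4 for H2A, 8 for H2B, 7 for H3 and 8 for H4. H1-6, the testis linker histone, is among the 5. HFE, which regulates iron uptake, is the only other protein-coding gene inside that run. The run of the smaller HIST1 interval starts with H2BC13 and ends with H2BC17. It has 16 genes, 1 for H1 (H1-5), 5 for H2A, 4 for H2B, 3 for H3 and 3 for H4. The HIST2 run has 11 genes, 4 for H2A, 2 for H2B, 3 for H3, 2 for H4 and 0 for H1. FCGR1A and LOC124904411 are other protein-coding genes that overlap the HIST2 run. In GRCh38.p14 the HIST2 run spans 105 kb, more than the 90 kb of its interval, so whether all 11 genes lie wholly inside was not determined.

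**Figure D1:**
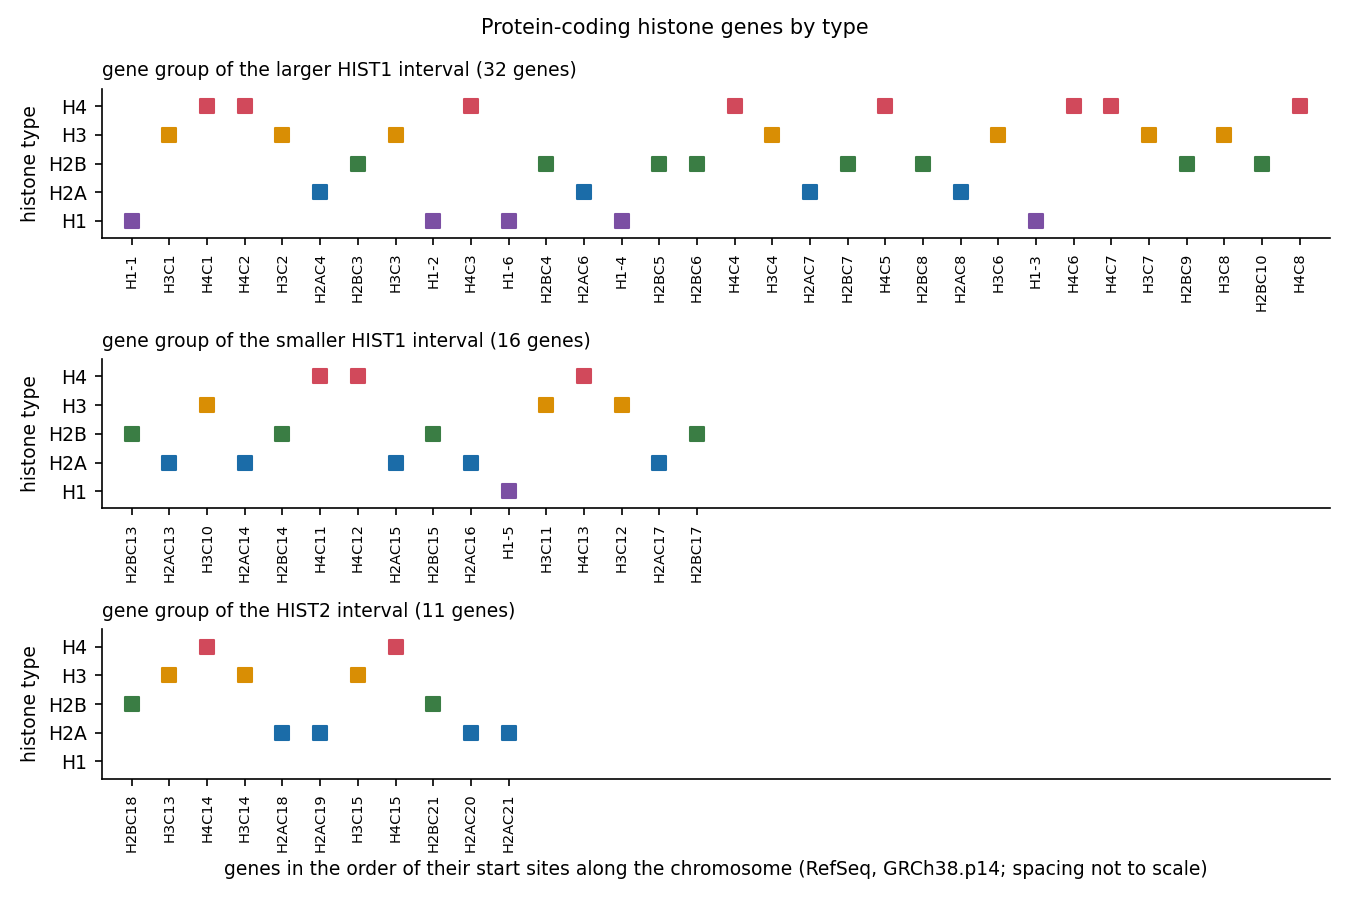
The 59 protein-coding histone genes in the 3 gene runs, in order of start site along the chromosome (x axis, spacing not to scale) and by histone type (y axis). The types are interleaved, the HIST2 run has 0 H1 genes, and H4C14, H3C14 and H2AC18 are followed by H2AC19, H3C15 and H4C15, the reverse order of types.

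The peaks are on hg19, for which gene positions were not used, and nothing was converted from GRCh38. A peak is therefore given by its interval and position. Which H1, H2A, H2B, H3 or H4 gene lies nearest to it was not determined.

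The promoters show what these genes share beyond their position. The sequences below are the first gene of each type with an entry in the run of the larger HIST1 interval, and H4C14 of the HIST2 run, whose promoter is identical to that of H4C15. Each runs from 250 bases before to 50 bases after the RefSeq start site, 5′ to 3′ on the gene's strand. In GRCh38.p14 they lie as follows: H1-1 at chr6:26017738-26018037 on the minus strand, H2AC4 at chr6:26033569-26033868 on the minus strand, H2BC3 at chr6:26043664-26043963 on the minus strand, H3C1 at chr6:26020201-26020500 on the plus strand, H4C2 at chr6:26027234-26027533 on the minus strand and H4C14 at chr1:149832407-149832706 on the plus strand. These coordinates are not on the build of the peaks. Capitals mark CCAAT (the CCAAT box, bound by NF-Y), TATAAA (the TATA box, bound by TBP) and ATTTGCAT (the octamer, bound by the POU factor OCT1), each on either strand.
H1-1: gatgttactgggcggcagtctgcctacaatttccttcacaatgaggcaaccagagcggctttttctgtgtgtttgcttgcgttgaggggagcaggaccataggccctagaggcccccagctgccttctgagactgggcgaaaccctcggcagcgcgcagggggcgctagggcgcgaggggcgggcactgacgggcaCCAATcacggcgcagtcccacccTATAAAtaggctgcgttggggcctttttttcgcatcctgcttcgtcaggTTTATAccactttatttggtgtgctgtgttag
H2AC4: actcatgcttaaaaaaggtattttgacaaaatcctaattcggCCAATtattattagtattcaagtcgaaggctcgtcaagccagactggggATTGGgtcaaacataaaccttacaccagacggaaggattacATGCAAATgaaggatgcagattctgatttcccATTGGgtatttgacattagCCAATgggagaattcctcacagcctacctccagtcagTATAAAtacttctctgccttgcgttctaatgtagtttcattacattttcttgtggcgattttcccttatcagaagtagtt
H2BC3: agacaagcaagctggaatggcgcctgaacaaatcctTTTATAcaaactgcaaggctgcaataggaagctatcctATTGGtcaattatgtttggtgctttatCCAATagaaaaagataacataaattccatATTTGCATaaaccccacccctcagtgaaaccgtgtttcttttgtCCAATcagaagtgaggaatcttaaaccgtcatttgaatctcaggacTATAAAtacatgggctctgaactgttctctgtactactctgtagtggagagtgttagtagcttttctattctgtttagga
H3C1: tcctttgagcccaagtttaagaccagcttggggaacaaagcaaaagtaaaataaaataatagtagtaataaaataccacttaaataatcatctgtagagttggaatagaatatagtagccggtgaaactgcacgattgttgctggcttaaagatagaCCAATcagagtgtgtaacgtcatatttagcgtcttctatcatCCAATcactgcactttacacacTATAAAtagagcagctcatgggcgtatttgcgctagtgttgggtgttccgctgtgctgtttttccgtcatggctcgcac
H4C2: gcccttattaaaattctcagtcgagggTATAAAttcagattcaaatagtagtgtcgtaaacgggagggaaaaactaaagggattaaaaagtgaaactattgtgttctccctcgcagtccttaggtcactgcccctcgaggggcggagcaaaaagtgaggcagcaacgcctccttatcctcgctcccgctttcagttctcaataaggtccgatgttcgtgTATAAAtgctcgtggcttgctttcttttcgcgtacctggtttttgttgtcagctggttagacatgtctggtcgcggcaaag
H4C14: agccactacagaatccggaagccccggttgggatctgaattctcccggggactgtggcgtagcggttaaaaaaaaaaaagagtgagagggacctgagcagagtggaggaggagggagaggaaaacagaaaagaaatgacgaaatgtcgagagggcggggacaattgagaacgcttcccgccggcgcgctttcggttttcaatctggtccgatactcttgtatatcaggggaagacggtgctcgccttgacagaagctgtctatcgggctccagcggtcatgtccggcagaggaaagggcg

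Of the 59 genes, 55 had a promoter sequence, and H4C1, H4C3, H3C11 and H3C12 did not. The CCAAT box was in 6 of 6 H1, 13 of 13 H2A, 14 of 14 H2B and 11 of 11 H3 promoters, but in 2 of 11 H4 promoters, those of H4C6 and H4C13. Among 27305 genes with a promoter in the table, 35.7% held it. The octamer was in 9 of 13 H2A and 11 of 14 H2B promoters, against 1.80% of all genes. Both strands were searched, so 1 site between 2 genes that point away from each other can count for both. The H2A and H2B counts therefore overlap. It was in 0 of 6 H1 and 0 of 11 H4 promoters. The 1 H3 promoter with it, H3C4, has the same annotated start window as H2AC7. The CCAAT boxes and octamer of that window were thus counted under both H2A and H3. Each motif was searched separately, and the letters of one hold none of the others.

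The TATA box was in 36 of 55 histone promoters, a shared site again counting for each gene, against 12.0% of all genes. In 29 of the 55 it stood 20 to 40 bases before the start on the gene's strand, between 28 and 32 bases in every such case, against 2.55% of all genes. In H1-1, H2AC4, H2BC3, H3C1 and H4C2, printed above, TATAAA stands there as the last match before the start, with CCAAT upstream of it in the first 4. H4C14 has 0 matches to the 3 motifs. The median GC content of the histone promoters was 42.3%, and that of all genes was 58.3%. A match is a run of letters and was not tested as a binding site.

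**Figure D2:**
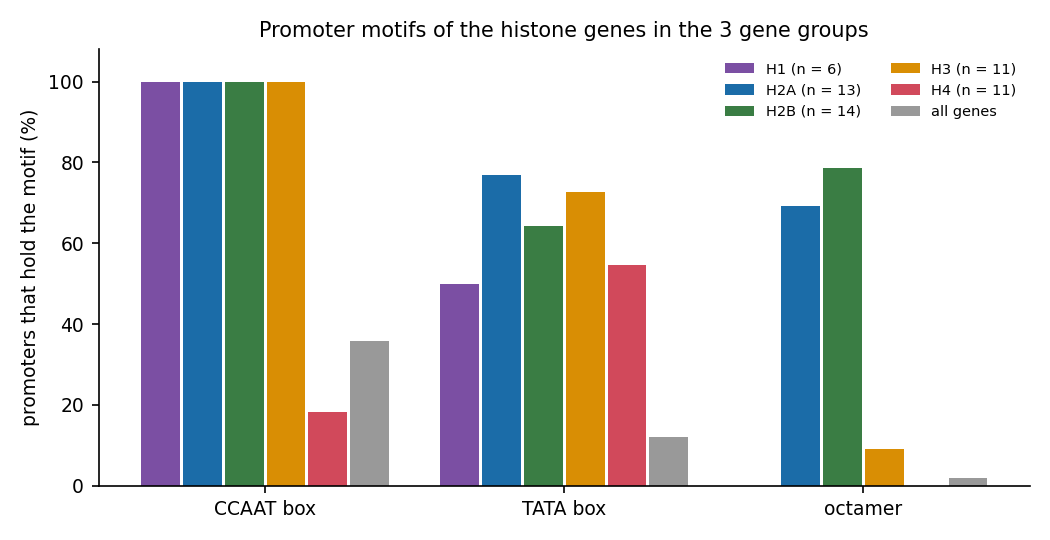
Share of promoters (y axis, percent) that hold each of 3 motifs (x axis), for the 5 histone types and for all 27305 genes; bars start at 0 and n is the number of promoters. CCAAT is in 100% of H1, H2A, H2B and H3 promoters and 18.2% of H4 promoters, and the octamer is in H2A and H2B promoters and 1 H3 promoter.

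Several H2A and H2B genes share 1 promoter region. In 8 H2A/H2B pairs, among them H2BC4 with H2AC6 and H2BC21 with H2AC20, the genes point away from each other with starts 194 to 246 bp apart (median 238). The octamer was in 6 of the 8 shared regions, and in each of these 6 the same site was counted for both genes. A peak over such a region would lie at the start of both genes.

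The HIST2 run contains near-identical copies, which may bear on how reads were placed there. The H4C14 and H4C15 promoters share an unbroken run of 300 bases, those of H2AC18 and H2AC19 a run of 299, and those of H3C14 and H3C15 a run of 296. Next came H4C11 and H4C12 of the smaller HIST1 run, with 126. Among 294 pairs of promoters of the same type the median was 9.5 bases, and 4 pairs exceeded 100. The sources used here do not say how reads that align equally well to 2 copies were placed. Whether any peak lies on such a copy was not determined. How far the copies affect the scores of HIST2 or smaller HIST1 peaks is therefore uncertain.

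Along the larger HIST1 interval, in band p22.2, PRMT5 peaks stood in 6 groups whose members were within 10 kb of each other. The first group held 4 weak peaks within 6.20 kb. They lay at 26027146 to 26027626 (score 6.39), 26031826 to 26032014 (2.38), 26032068 to 26032332 (5.07) and 26033005 to 26033349 (3.73). All 4 scored below the list's median of 7.80.

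The strongest peak of all 3 intervals stood alone 21.8 kb further on, at 26055124 to 26056237. It scored 40.02, ranked 57 of 2840, and was 1114 bp wide, the only one of the 23 wider than 1 kb. It had no neighbour closer than 21.8 kb on either side.

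The second strongest lay 47.7 kb beyond, at 26103974 to 26104324, with a score of 24.7 and rank 186. A weak peak of score 2.13 followed it after 57 bp, at 26104382 to 26104652. The next group was a single peak of 585 bp at 26123187 to 26123771, with a score of 15.9. These 3 strong peaks thus lay in 3 separate groups, each 18.5 kb or more from the next group.

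The fifth group held 4 peaks within 2.23 kb. Its broadest, 739 bp at 26157346 to 26158084, scored 11.6. The others lay at 26156649 to 26156791 (score 7.44), 26158340 to 26158493 (6.98) and 26158642 to 26158877 (2.97). A stretch of 127 kb without a peak followed, the longest in the interval, and the last peak lay at 26285710 to 26285875 with a score of 6.23. That stretch is 45.3% of the interval, so the peaks were not spread evenly over the cluster. A missing peak does not show that PRMT5 was absent there.

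In the smaller HIST1 interval, in band p22.1, the 4 peaks lay in 2 close pairs within 7.66 kb. The first pair was at 27791792 to 27792086 (score 7.98) and 27792365 to 27792566 (5.88), and the second at 27798497 to 27798903 (7.86) and 27799070 to 27799451 (10.9). The gaps within the pairs were 278 and 166 bp. The other 92.3% of the interval held 0 peaks.

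The 6 HIST2 peaks, in band q21.2 of chromosome 1, lay within 19.6 kb. The first, at 149804138 to 149804462, scored 4.12. A set of 3 followed, at 149811742 to 149811903 (score 8.03), 149812295 to 149812433 (1.42) and 149813038 to 149813614 (11.7). A pair came 8922 bp later, at 149822537 to 149822792 (8.26) and 149823319 to 149823781 (13.99). The peak of score 1.42 ranked 2837 of 2840 and was 139 bp wide, as narrow as any peak of the list.

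**Figure D3:**
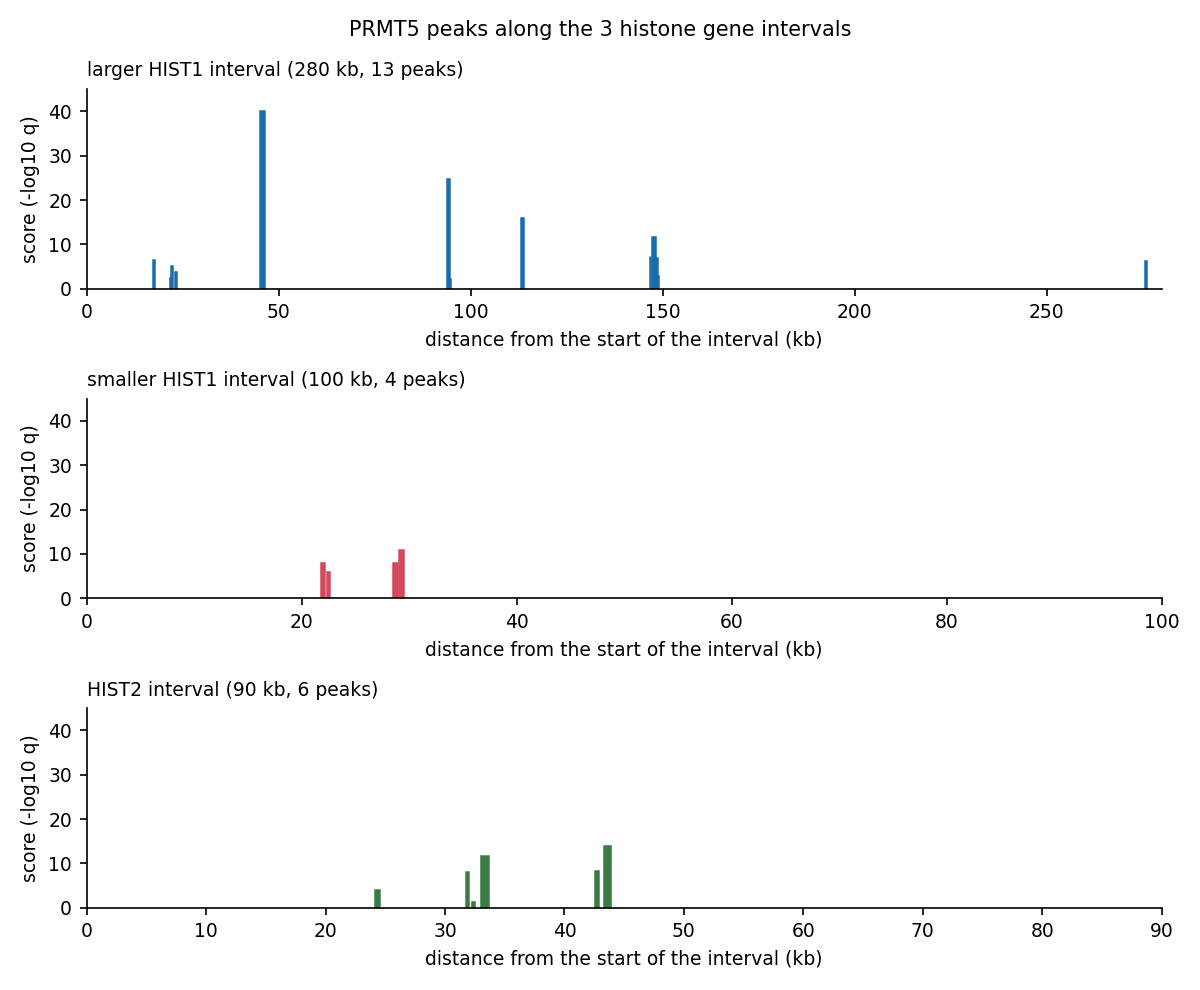
PRMT5 peaks along the 3 intervals, with distance from the interval's start (x axis, kb) and score (y axis, −log10 q); each bar is 1 peak at its width. The larger HIST1 interval holds the 3 highest bars, at 40.02, 24.7 and 15.9, and long peak-free stretches follow in all 3.

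By number, the 3 intervals held 4.89 peaks per 100 kb, against 0.0927 on chromosomes 1 to 22 and X as a whole. The values were 4.64 for the larger HIST1, 4.0 for the smaller HIST1 and 6.67 for the HIST2 interval. Peaks covered 1.75% of the 3 intervals and 0.0249% of those chromosomes. The intervals were proposed with this density known, so nothing is read from it.

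Windows of like length with at least as many peaks were few along these chromosomes. The counts compared were those of intervals proposed with their density known, so this is also a description and was not tested. Of 280 kb windows laid end to end along chromosomes 1 to 22 and X, 16 (0.148%) held 13 or more peaks. Of 100 kb windows 0.247% held 4 or more, and of 90 kb windows 0.0919% held 6 or more. Of the 16 windows of 280 kb, 14 lay within 1 Mb of a centromere band, and none overlapped a histone interval, because the fixed window edges divided the larger HIST1 interval. Of the 75 windows of 100 kb, 32 lay that close to a centromere band, 43 lay farther away and 4 overlapped a histone interval. Of the 31 windows of 90 kb, 25 lay within 1 Mb of a centromere band and 2 overlapped a histone interval. Whether repeat sequence lies under the histone peaks was not tested.

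The share of histone peaks differed among the 3 chromosome bands, but the intervals also take up unlike parts of them. The larger HIST1 interval is 280 kb of the 1.8 Mb of 6p22.2, and the smaller is 100 kb of the 3.4 Mb of 6p22.1. The HIST2 interval is 90 kb of the 3.3 Mb of 1q21.2. In 6p22.2, 13 of 14 peaks lay in the larger HIST1 interval, and in 6p22.1, 4 of 7 lay in the smaller one. In 1q21.2, 6 of 13 lay in the HIST2 interval and 7 lay outside it.

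Just outside the edges were few peaks. The nearest was at 27763604 to 27763768, 6.2 kb before the smaller HIST1 interval, with a score of 6.20. Between the HIST1 intervals 1 further peak lay at 27099780 to 27099953, with a score of 8.04. In RefSeq, 5 further histone genes (H2BC11, H2AC11, H2BC12, H4C9 and H2AC12) form a run between the 2 HIST1 runs, but whether either peak lies among them was not determined. Before the larger HIST1 interval the nearest peak was 551 kb away, and beyond the smaller one 1039.3 kb. For HIST2 these distances were 266.1 and 1101.7 kb.

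Close neighbours were common among the histone peaks. Of the 23, 18 had another peak within 1 kb, namely 9 of 13 in the larger HIST1, 4 of 4 in the smaller HIST1 and 5 of 6 in the HIST2 interval. In the whole list 24.3% did. Merging peaks within 1 kb turned the 23 into 12 regions. The widest of these spanned 2229 bp, from 26156649 to 26158877, and the next 1873 bp, from 149811742 to 149813614. A dense set of peaks and close neighbours are largely 1 property, so this share restates the density.

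Counted singly, the histone peaks did not have higher scores than other peaks at the median. Their median was 7.44 (quartiles 4.6 and 11.3), against 7.80 (5.38 and 12.4) for the other 2817 peaks. A score above 10 was reached by 7 of 23 (30.4%), close to the 34.9% of the whole list. With the list cut at its quartiles, the 4 parts from weakest to strongest held 7, 5, 7 and 4 histone peaks. The medians were 6.39, 7.92 and 8.14 in the larger HIST1, the smaller HIST1 and the HIST2 interval. The ranges overlapped, from 2.13 to 40.02, from 5.88 to 10.9 and from 1.42 to 13.99. The sign of this gap was not stable. With peaks within 1 kb merged and the highest score of each region kept, the median was 11.3 for the histone regions and 7.80 for the others. Keeping the highest score favours the side with more close neighbours, 78.3% of histone peaks against 23.9% of other peaks. That reversal therefore does not show stronger histone peaks. Without the larger HIST1 interval the median of the histone peaks was 8.0.

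**Figure D4:**
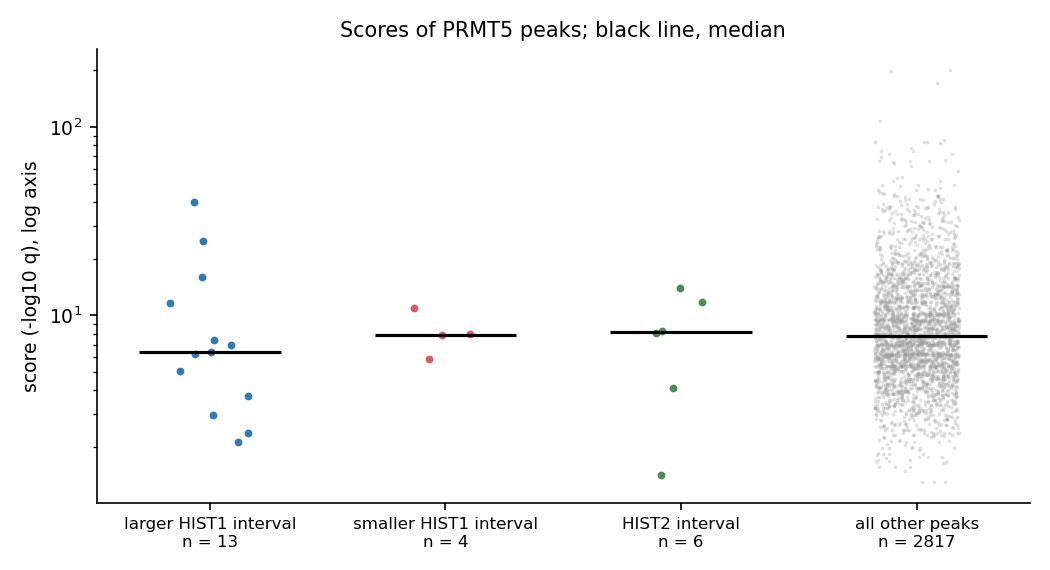
Scores (y axis, −log10 q, log axis) of the peaks of each histone interval and of all other peaks (x axis); each point is 1 peak and the black line is the median. The medians lie between 6.39 and 8.14, and only the larger HIST1 interval has histone peaks above 20.

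The histone peaks were wider at the median, 295 bp against 210 bp, and 4 of 23 (17.4%) were wider than 500 bp, against 6.94% of the list. Those 4 were the peaks starting at 26055124, 26123187, 26157346 and 149813038. Against other peaks outside 1 Mb windows with 10 or more peaks, whose median width was 196 bp, the order was the same. However, the 13 peaks of the larger HIST1 interval lie in such a dense window themselves. Of the other 2817 peaks 193 were wider than 500 bp, but only 96 of the 2206 outside dense windows (4.35%). Wide peaks were thus commoner among other peaks in dense windows, and width is not particular to the histone peaks. Width and score rose together among the 23 peaks with a Spearman rho of 0.62, and among the other peaks with a rho of 0.52. Both come from 1 caller and 1 library, and peaks are not replicates.

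Counted singly, most histone peaks scored below the median of other peaks of like width. Of the 23, 18 had another peak within 1 kb. The comparison was not repeated with such peaks merged or against other peaks outside dense windows. Each was set beside other peaks whose width was within 10% of its own. It scored below their median in 16 of 23 cases and above it in 7. The lowest for its width was the HIST2 peak at 149812295 to 149812433, which exceeded 0.0% of 474 peaks of like width. Next came the peaks at 26104382 to 26104652, above 0.806% of 372, and at 26031826 to 26032014, above 2.59% of 580. The peaks at 26055124 to 26056237 and 26103974 to 26104324 were high for their width, above 95.0% of 20 and 81.1% of 175 peaks. Whether transcription of the genes, the input or the placement of reads moves with these values was not tested.

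**Figure D5:**
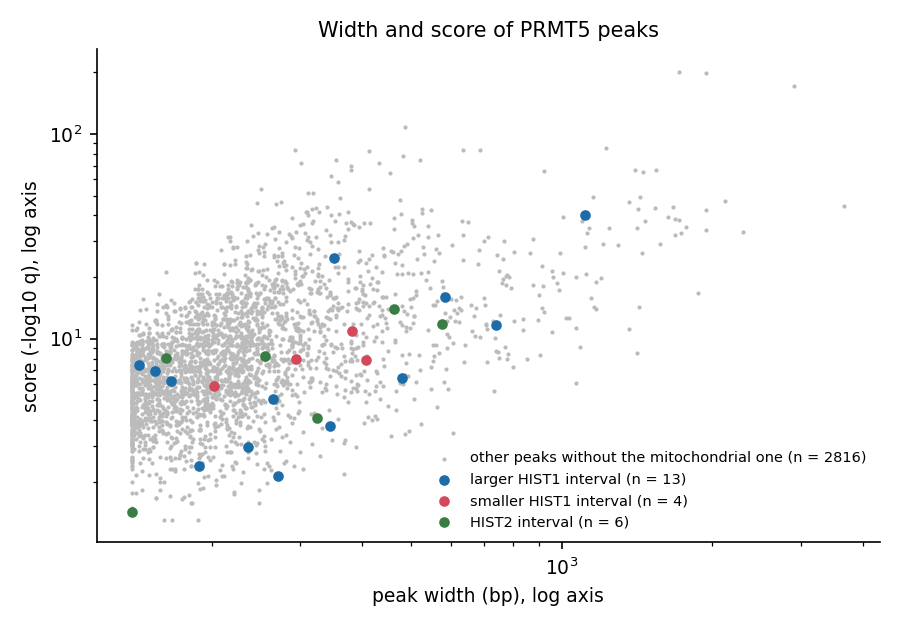
Width (x axis, bp, log axis) and score (y axis, −log10 q, log axis) of each PRMT5 peak, with the histone peaks coloured by interval and other peaks in grey; the mitochondrial peak is left out. At moderate widths most coloured points lie in the lower part of the grey cloud, and the point at 1114 bp with a score of 40.02 lies above most peaks of like width.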

How the data were processed

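One PRMT5 library of untreated MDA-MB-231 cells was analysed from its peak list. The input library was left out. The deposited score was taken as the −log10 of a q-value, since the smallest, 1.30279, lies just above 1.30103, the −log10 of 0.05. The file has no header. Per the submitters' processing notes, CASAVA 1.4, Bowtie2, MACS2 and hg19 were used, with no roles or settings stated. No peak ended beyond its hg19 chromosome. Coordinates are counted from 1. Any overlap with an interval made a peak a member, and every member is reported. Genes came by name from a RefSeq table of GRCh38.p14, and runs were split at gaps above 100 kb. For each gene the first listed promoter was used. Members and lists were chosen with earlier results of these data known, and no test was made. Interval functions were tested on simulated data. Chromosome lengths came from GenomeInfoDb 1.38.1 and bands from circlize 0.4.16. Python 3.11.15 with numpy 2.4.6, pandas 2.3.3 and matplotlib 3.10.9 was used. Alternatives were the highest-scoring peaks, merging, interval edges and other background peaks.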

Additional observations from a re-analysis of the deposited data

How the results depend on the processing

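The number of histone peaks, 23, was 12 with peaks merged within 1 kb, 11 in the highest-scoring 50% of the list and 4 in the highest-scoring 25%, each as built. It was 24 with intervals widened by 10 kb and 23 by peak midpoint. The median score of histone peaks minus that of other peaks, −0.355, was −0.295 against other peaks outside dense windows. It turned to 3.48 after merging, which keeps the highest score of each region and joined a larger share of the histone peaks. Without the larger HIST1 interval it was 0.206. It was −0.819 without the smaller HIST1 interval and −0.819 without the HIST2 interval. The median width difference, 85.0 bp, was 61.0 to 100 bp under the other alternatives and 661 bp after merging, which adds widths. Leaving out an interval, and merging for the width, were chosen after seeing the data. The counts of genes with a peak need an hg19 annotation and were not run. What depth limits cannot be said from a peak list. No paired analysis was possible because there is only 1 library of each kind.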
